A study of Mus musculus with 8 samples.

Results

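Collagen chains of the fibril-associated (FACIT), short-chain and transmembrane classes were measured in mouse lungs with and without Atf4, the transcription factor that carries the integrated stress response to genes of amino acid synthesis and transport. The 10 genes were taken by name, with earlier results of these data known. They were Col12a1, Col14a1, Col16a1, Col19a1, Col21a1 and Col22a1 of the FACIT class and the short-chain genes Col8a1 and Col8a2. The others were Col13a1 and Col23a1, which encode transmembrane collagens rather than either of the other classes. Of the 10, 9 had a transcript cluster annotated with their symbol alone. A cluster is the array's unit of measurement, a set of probes for 1 locus. There were 65956 clusters and 30176 genes in all, and each of the 9 had exactly 1 single-symbol cluster. Col21a1 was not analysed here. The 4 Atf4 KO (Atf4D/D) and 4 WT (Atf4wt/wt) mice were 13 weeks old on a C57BL/6 background, all carried Rosa26::CreERT2, a tamoxifen-activated recombinase expressed in all tissues, and all had received tamoxifen, so that KO and WT mice differed in whether Atf4 was flanked by loxP sites. Whole lungs were taken 4 weeks after tamoxifen from 3 males and 1 female of each genotype, KO replicate 2 and WT replicate 3 being the females, and each lung was hybridized to 1 Clariom D array. Values are log2 signals, differences are KO minus WT, and a gene counted as called where its adjusted p was 0.05 or less and its fold exceeded 1.5.

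FACIT collagens do not build fibrils themselves. Of these, collagens XII and XIV (Col12a1 and Col14a1) sit on the surface of fibrils of type I collagen. There their non-collagenous arms reach into the surrounding matrix and to decorin and tenascins. The short-chain type VIII chains end in a C1q-like domain, assemble into open networks and are best known from Descemet's membrane of the cornea and from vessel walls. Col13a1 and Col23a1 span the plasma membrane and can be shed from it. In mouse lung, Col13a1 and Col14a1 have given their names to separate populations of fibroblasts.

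RefSeq promoter sequences, 250 bases before to 50 after the start of transcription (mouse build GRCm38.p6, 5′ to 3′ on the strand of the gene), were at hand for 6 of the 9 genes, and the sequences of the 2 genes whose KO and WT lungs did not overlap are shown with that of Col8a2, the partner chain of Col8a1, whose KO and WT lungs did overlap. Col8a1 (chr16:57754688-57754987, minus strand), Col16a1 (chr4:130047590-130047889, plus strand) and Col8a2 (chr4:126286544-126286843, plus strand) read as follows, with capitals marking GC boxes (GGGCGG or its complement CCGCCC) and the CCAAT box.
Col8a1: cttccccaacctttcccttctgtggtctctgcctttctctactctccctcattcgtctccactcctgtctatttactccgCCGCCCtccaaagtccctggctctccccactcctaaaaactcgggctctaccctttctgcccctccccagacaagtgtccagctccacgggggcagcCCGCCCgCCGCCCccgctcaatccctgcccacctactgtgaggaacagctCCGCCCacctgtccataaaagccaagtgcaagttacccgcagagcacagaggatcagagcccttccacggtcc
Col16a1: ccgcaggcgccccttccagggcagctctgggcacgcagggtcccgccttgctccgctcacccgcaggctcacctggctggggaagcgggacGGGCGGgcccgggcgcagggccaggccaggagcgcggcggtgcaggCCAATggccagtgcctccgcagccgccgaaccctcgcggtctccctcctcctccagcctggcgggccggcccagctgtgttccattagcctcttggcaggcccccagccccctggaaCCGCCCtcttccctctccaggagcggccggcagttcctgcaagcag
Col8a2: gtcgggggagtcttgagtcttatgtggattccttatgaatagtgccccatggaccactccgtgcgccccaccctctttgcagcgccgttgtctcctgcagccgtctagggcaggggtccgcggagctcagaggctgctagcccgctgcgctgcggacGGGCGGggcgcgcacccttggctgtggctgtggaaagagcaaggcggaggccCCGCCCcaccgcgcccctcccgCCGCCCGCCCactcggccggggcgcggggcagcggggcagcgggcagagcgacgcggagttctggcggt
The GC box, read on both strands, stood in 4 of the 6 promoters (Col8a1, Col8a2, Col16a1 and Col23a1) and in 35.7% of all 32851 promoters. Col8a1 and Col8a2 each held 4 matches, the last 2 of Col8a2 overlapping each other, and Col16a1 held 2. CCAAT was found in Col16a1 alone (37.4% of all promoters), and TATAAA in Col13a1 alone (13.6%). Of letters bound by ATF4 and its relatives, the C/EBP-ATF composite core TGATGNAA (3.97% of all promoters) and the cyclic AMP response element core TGACG (20.8%) were in none of the 6 windows. Neither were the AP-1 element TGANTCA (7.81%) and the TEAD element GGAATG (14.7%).

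Atf4 itself read 6.34, 6.26, 6.48 and 6.38 in KO lungs 1 to 4 and 6.99, 8.03, 7.995 and 7.58 in WT lungs 1 to 4. It fell in KO lungs by 1.29 (SE 0.21, limma adjusted p = 0.0485), and the array labelled WT replicate 1 lay nearest to the KO lungs. Sftpc, the surfactant protein of alveolar type 2 cells, lay between 18.5 and 18.7 in KO lungs and between 18.7 and 18.9 in WT lungs, so that this lung cell marker was strong in all 8 samples.

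No member was called, against 0.276% of all clusters (182 of 65956), and the smallest adjusted p among them was 0.275 (limma, Benjamini-Hochberg over all clusters). All 9 had lower means in KO lungs, where 61% of all clusters did, and 4 of the 9 were lower at an unadjusted p under 0.05 (Col8a1, Col14a1, Col16a1 and Col12a1), against 7.63% of all clusters. That count was 2 when any of KO replicates 1, 2 and 3 or WT replicates 2, 3 and 4 was left out, 3 without KO replicate 4, 5 without WT replicate 1 and 1 in males only. Every KO lung lay below every WT lung for Col8a1 and Col16a1, 2 of the 9, against 4.41% of all clusters. The median difference of the members was -0.16, beside -0.03 over all clusters. These genes are made mostly by mesenchymal cells, and in whole lung fewer such cells and less RNA per cell cannot be told apart.

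**Figure D1:**
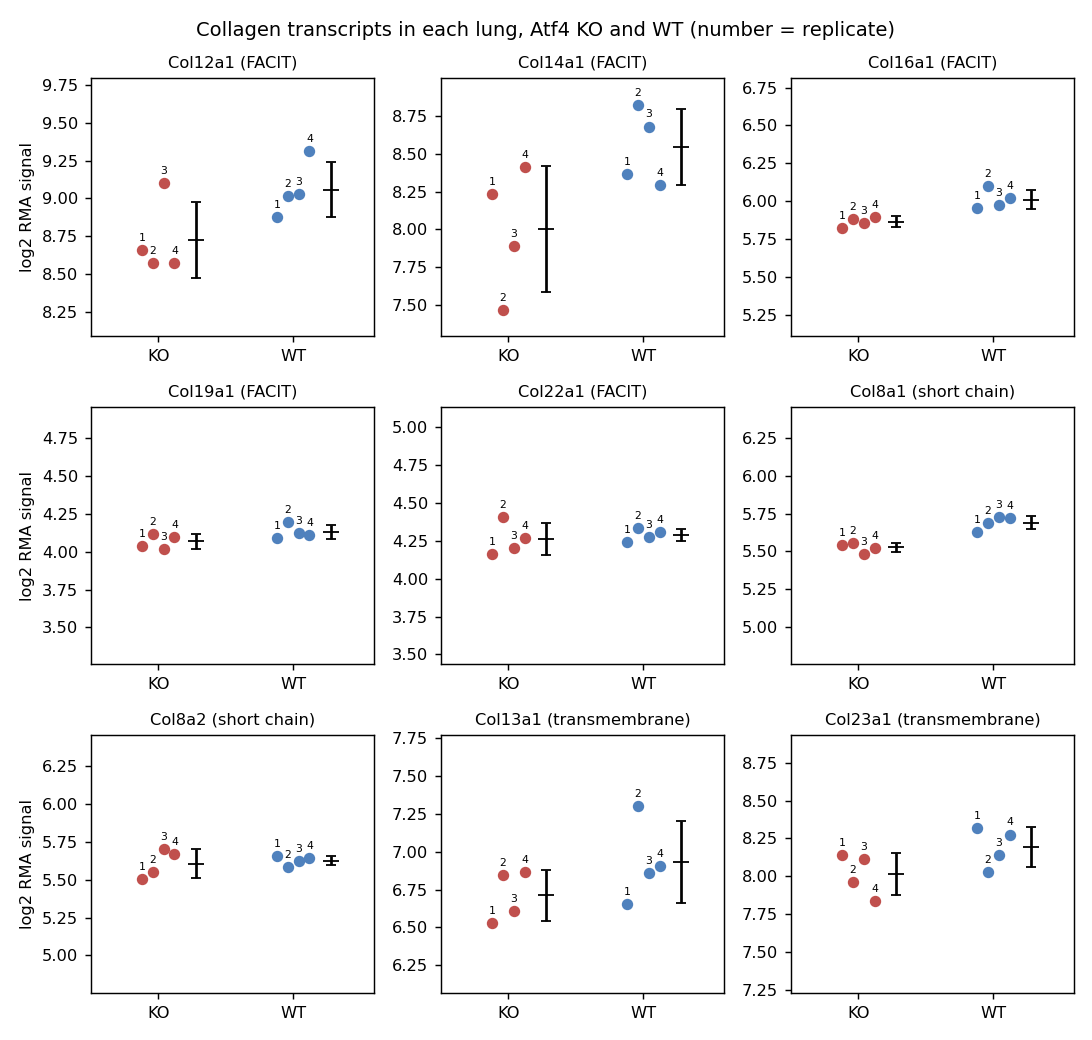
Log2 signal (vertical axes, each spanning the same number of log2 units) of the 9 measured genes in 4 KO lungs (red, left) and 4 WT lungs (blue, right), 1 point per lung numbered by replicate, with the mean and SD as black bars. KO and WT points are separate for Col8a1 and Col16a1 and overlap for the other 7 genes.

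Of the FACIT genes, Col14a1 had the largest difference. Its product, collagen XIV, binds decorin on the fibril surface and marks adventitial fibroblasts of the mouse lung. It read 8.24, 7.47, 7.89 and 8.41 in KO lungs and 8.37, 8.82, 8.68 and 8.30 in WT lungs. KO replicates 1, 2 and 3 lay below every WT lung, and KO replicate 4 lay above WT replicates 1 and 4. The difference was -0.54 (SE 0.20, 95% interval -1.0 to -0.08, limma adjusted p = 0.341), a signal 31.2% lower in KO lungs. KO replicate 2, the KO female, weighed most in it: without that lung the difference was -0.36, and among males alone -0.32, neither at an unadjusted p under 0.05.

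Collagen XII, the product of Col12a1, is the FACIT of tendon, ligament and other tissue under load, and binds tenascin-X. Col12a1 read 8.66, 8.57, 9.10 and 8.57 in KO lungs and 8.88, 9.01, 9.03 and 9.31 in WT lungs. KO replicates 1, 2 and 4 lay below every WT lung, while KO replicate 3 lay above 3 of the 4. The difference was -0.33 (SE 0.14, 95% interval -0.64 to -0.02, limma adjusted p = 0.376). Without KO replicate 3 it was -0.46 (limma adjusted p = 0.173) and without WT replicate 4 it was -0.25, and it stayed at an unadjusted p under 0.05 in 2 of the 8 fits that left out 1 lung. Col1a1 and Col3a1, the genes of the fibrils that collagen XII coats, also had their highest KO values in replicate 3, at 10.5 and 8.82. Unlike Col12a1, both lay below every WT lung there.

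Collagen XVI, from Col16a1, is a minor FACIT of many tissues that integrins bind. Col16a1 read 5.82, 5.88, 5.86 and 5.90 in KO lungs and 5.95, 6.10, 5.97 and 6.02 in WT lungs. All KO lungs were below all WT lungs, with 0.05 between the highest KO and the lowest WT lung. The signal was modest: its mean over the 8 lungs, 5.94, was above that of 59.4% of clusters. The difference of -0.15 (SE 0.06, 95% interval -0.28 to -0.02, limma adjusted p = 0.358) amounted to a signal 9.65% lower in KO lungs.

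The remaining FACIT genes gave low signals and differed little. Col19a1, known from neurons and from developing muscle, lay between 4.02 and 4.12 in KO lungs and between 4.09 and 4.19 in WT lungs (difference -0.06, 95% interval -0.19 to 0.06, limma adjusted p = 0.717). Col22a1, whose product lies at tissue junctions such as those of muscle with tendon, lay between 4.16 and 4.41 in KO lungs and between 4.24 and 4.33 in WT lungs (difference -0.03, 95% interval -0.18 to 0.12, limma adjusted p = 0.906). KO and WT lungs overlapped for both, and both signals were below the median cluster of the array, 5.25.

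The 2 short-chain genes did not show the same picture. Col8a1 read 5.54, 5.55, 5.48 and 5.52 in KO lungs and 5.63, 5.69, 5.72 and 5.72 in WT lungs, so that the KO lungs lay together below the WT lungs. Its difference was -0.16 (SE 0.05, 95% interval -0.29 to -0.04, limma adjusted p = 0.275), a signal 10.8% lower in KO lungs. The mean signal of Col8a1 over the 8 lungs, 5.61, was modest, above that of 55.3% of clusters. Col8a2 read 5.50, 5.55, 5.70 and 5.67 in KO lungs and 5.65, 5.59, 5.62 and 5.64 in WT lungs. KO replicates 1 and 2 were below all WT lungs and KO replicates 3 and 4 above them, and the difference was -0.02 (SE 0.06, 95% interval -0.16 to 0.12, limma adjusted p = 0.936). Whether the differences of the 2 genes themselves differ was not tested.

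Of the transmembrane genes, Col13a1, whose product also helps to mature the neuromuscular junction, read 6.53, 6.85, 6.61 and 6.87 in KO lungs and 6.66, 7.30, 6.86 and 6.90 in WT lungs. WT replicate 2 stood above the other lungs, which overlapped. The difference was -0.22 (SE 0.14, 95% interval -0.53 to 0.10, limma adjusted p = 0.592), and -0.09 without WT replicate 2. Col23a1 read 8.14, 7.96, 8.11 and 7.84 in KO lungs and 8.32, 8.03, 8.14 and 8.28 in WT lungs. KO and WT lungs overlapped through WT replicate 2, and the difference was -0.18 (SE 0.09, 95% interval -0.39 to 0.03, limma adjusted p = 0.493).

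**Figure D2:**
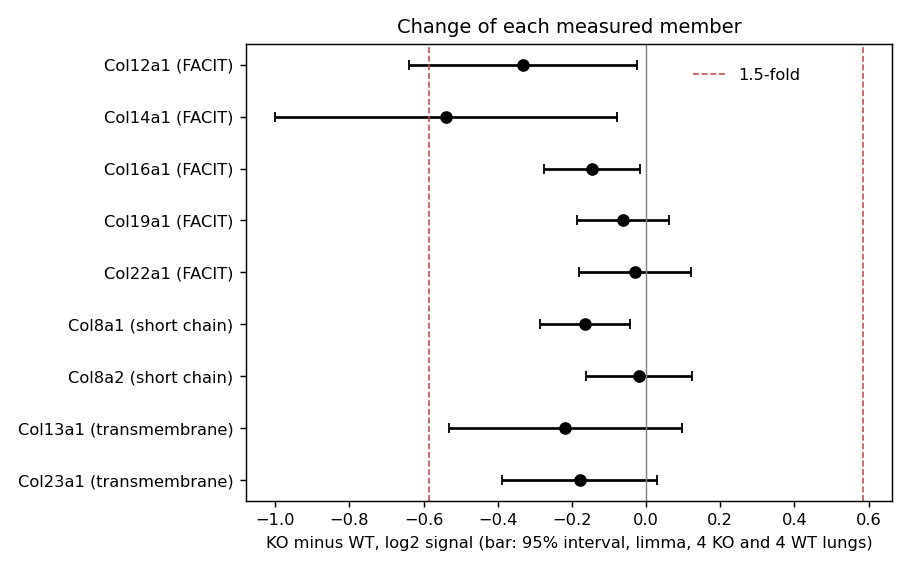
KO minus WT difference in log2 signal (horizontal axis) of the 9 measured genes, with 95% intervals from limma on 4 KO and 4 WT lungs and dashed lines at 1.5-fold. All points lie at or left of -0.02, the intervals of Col8a1, Col12a1, Col14a1 and Col16a1 lie below 0, and those of Col12a1 and Col14a1 extend past the lower dashed line.

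The 95% intervals of 7 of the 9 genes lay inside a 1.5-fold difference in either direction, and those of Col12a1 and Col14a1 reached beyond it on the lower side. Averaged over the 9 genes, the signal was 6.29, 6.26, 6.33 and 6.35 in KO lungs 1 to 4 and 6.42, 6.56, 6.49 and 6.51 in WT lungs 1 to 4. The KO lungs lay below the WT lungs, with means of 6.31 ± 0.04 in KO lungs and 6.497 ± 0.06 in WT lungs (SD, n = 4 each), and no test was run on this average. WT replicate 2 was the highest of the 8 lungs for 4 genes, and KO replicate 1 the lowest for 4. Without the array labelled WT replicate 1, whose Atf4 lay nearest to the KO lungs, 5 of the 9 genes were lower at an unadjusted p under 0.05. None was called, and the share of all clusters lower at that p was 9.95%.

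Some of the 11 fibril-forming chains differed by more than any of the 9 members. All 11 had lower means in KO lungs and 4 were called: Col3a1 (-2.46), Col1a1 (-2.03), Col1a2 (-1.47) and Col5a2 (-0.71), the last 2 named after their values were seen and near the threshold (limma adjusted p = 0.0462 and 0.0449). Col5a1 fell by 0.45 (limma adjusted p = 0.0408), short of the fold minimum. The other 6, Col2a1 and Col11a2 among them, had differences of -0.16 to -0.04, and the median of the class was -0.16, beside -0.16 for the FACIT, short-chain and transmembrane genes. Col1a1 read 9.56, 9.35, 10.5 and 10.1 in KO lungs and 11.7, 11.9, 11.9 and 12.1 in WT lungs. The log2 difference from Col1a1 was higher in every KO lung than in every WT lung for all 9 members, as for 99.1% of all clusters.

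Among 5 measured chains of collagen VI, the beaded-filament collagen, Col6a3 (-1.36) and Col6a1 (-0.63) were called and Col6a2 (-0.79, limma adjusted p = 0.0506) was not. The 8 basement membrane chains all had every KO lung below every WT lung, with a median of -0.38. None was called and 7 were lower at an unadjusted p under 0.05, with Col4a1 at -0.66, Col4a5 at -0.46 and Col4a3 at -0.41. The other 9 measured chains of FACIT, network, transmembrane and anchoring type, from Col9a1 to Col28a1, had a median of -0.02 and 0 calls. All of them but Col20a1 had a mean signal below the median cluster of the array, 5.25. Col28a1, at -0.19, was lower at an unadjusted p under 0.05, and Col25a1 (-0.08) and Col20a1 (-0.06) were not. No difference between the classes was tested.

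**Figure D3:**
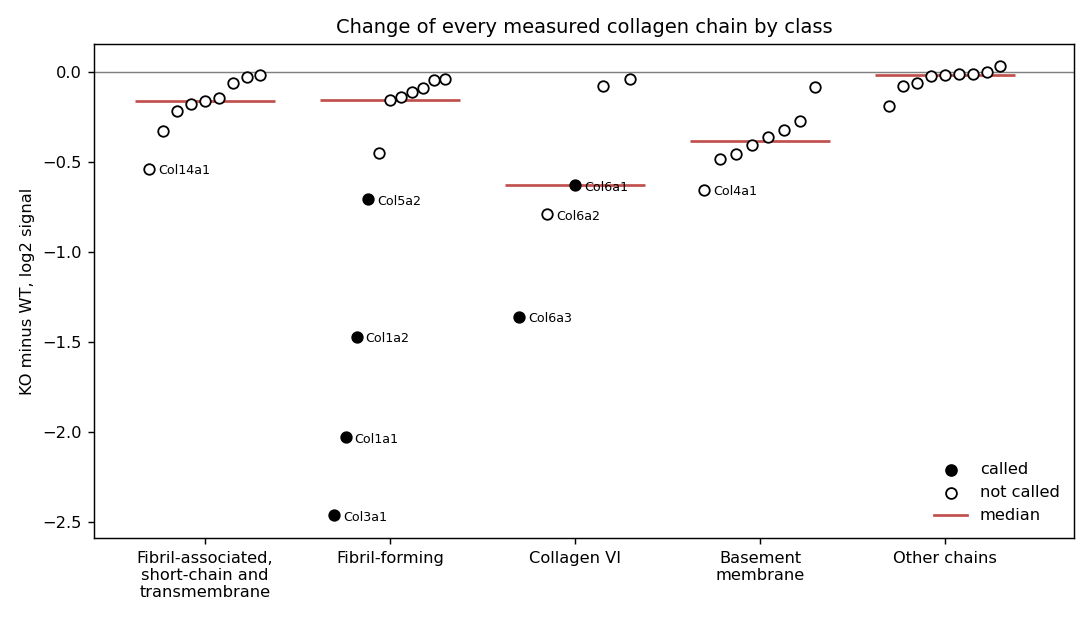
KO minus WT difference in log2 signal (vertical axis) of every measured collagen chain, 1 point per gene, by class (horizontal axis), with filled points for called genes and a red line at the class median. The fibril-associated, short-chain and transmembrane genes lie between -0.54 and -0.02 with no filled point, while 4 fibril-forming and 2 collagen VI genes are filled.

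Proteins that share the fibril surface with collagens XII and XIV were examined next. Of 13, 11 had lower means in KO lungs, 0 were called and 6 were lower at an unadjusted p under 0.05 (median -0.17). Dpt, encoding dermatopontin, which binds decorin and collagen, had a difference of -1.11, Tnc, encoding the matrix glycoprotein tenascin-C, one of -0.73, and Aspn, encoding asporin, a small leucine-rich proteoglycan, one of -0.73. Col14a1 was lowest in KO replicate 2, 0.80 below its mean over the 8 lungs. There Dpt, Dcn (decorin) and Tnxb (tenascin-X) were also at or near their lowest, at -1.61, -0.86 and -0.87 from their own means. That was not particular to these genes. KO replicate 2 was also the lowest lung for Col1a1 (-1.54), Col3a1 (-1.77), Col12a1 (-0.32), Lum, Mfap5, Tnc and Aspn. Fmod, Ogn and Bgn, named after their values were seen, were lowest in other lungs. In WT replicate 2, Col14a1 was highest, at 0.55, as were Dpt at 0.84, Dcn at 0.67 and Tnxb at 0.73. Dcn and Tnxb were picked after their values were seen, and other genes of this kind did not peak there: Lum, encoding lumican, was highest in WT replicate 1, and Tnc, Aspn and Mfap5 in WT replicate 4. Dcn was lowest of all in WT replicate 4, at -0.91, the WT lung with the lowest Col14a1.

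**Figure D4:**
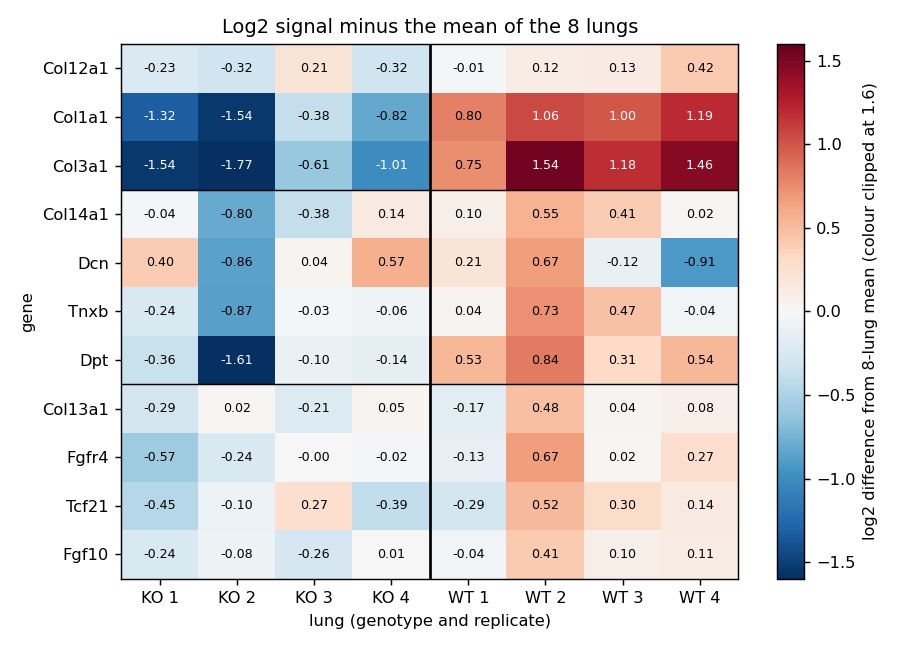
Log2 signal minus the mean of the 8 lungs (colour and printed number) for Col12a1, Col14a1 and Col13a1 (first row of each block) and genes of the same matrix or fibroblast type (rows below), in 4 KO lungs (left of the line) and 4 WT lungs (right). Genes in the rows below were picked after their values were seen. KO 2 is low and WT 2 high in the Col14a1 block, and KO 2 is also the lowest lung in each row of the Col12a1 block. WT 2 is highest throughout the Col13a1 block, which leaves out other markers of this type. Of these, Npnt, Limch1 and Ces1d were highest in WT 4, Cxcl14 in WT 3 and Itga8 in KO 3. Wnt2 and Inmt were highest in WT 2. These markers were also named after their values were seen.

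Fibroblast markers, in lists that share genes, were lower on the whole in KO lungs. Of 15 measured fibroblast markers, 13 had lower means, 7 were lower at an unadjusted p under 0.05 and 0 were called. Cd34 was at -0.58 and Mfap5, a microfibril protein gene, at -0.88. The 2 with higher means, named after their values were seen, were Pi16 (0.34) and Dcn (0.08). The average of the list lay between 9.94 and 10.3 in KO lungs and between 10.4 and 10.5 in WT lungs. All 10 markers of the Col13a1 type of lung fibroblast had lower means (4 at an unadjusted p under 0.05, 0 called, average 11.2 to 11.5 in KO lungs and 11.6 to 11.8 in WT lungs), led by the chemokine gene Cxcl14 (-0.57) and the nephronectin gene Npnt (-0.51). For the Col14a1 type, 9 of 11 had lower means and 5 were lower at an unadjusted p under 0.05 (0 called, average 9.38 to 9.91 in KO lungs and 9.88 to 10.2 in WT lungs). Dpt, Dcn, Cd34, Gsn, Mfap5, Pi16, Clec3b and Serpinf1 of the Col14a1 type were also in the fibroblast list. So were Npnt, Tcf21 and Fgf10 of the Col13a1 type, so the lists do not count separately. The part of fibroblast numbers in the collagen values was not tested.

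Markers of mesothelium, the lining of the pleura, varied from lung to lung within both genotypes. Their average over 7 genes was 8.37, 8.11, 7.38 and 9.14 in KO lungs 1 to 4 and 7.63, 9.83, 7.87 and 8.10 in WT lungs 1 to 4, and 0 of the 7 passed an unadjusted p under 0.05, Krt19 (0.30) and Upk1b (-0.31) coming nearest. KO replicate 4 and WT replicate 2, the highest of each genotype, were also the highest of each genotype for Col13a1, Col14a1 and Col16a1. These genes were picked after their values were seen, and no other member showed this. For Col23a1, KO replicate 4 was the lowest of all lungs (7.84) and WT replicate 2 the lowest WT lung (8.03). Without WT replicate 2, Col14a1 differed by -0.45 and Col16a1 by -0.12, neither at an unadjusted p under 0.05. That loss was not particular to this lung: each gene stayed under 0.05 in 4 of the 8 fits that left out 1 lung. The part of mesothelium in these values was not tested.

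The smooth muscle and pericyte list of 12 had 1 gene lower at an unadjusted p under 0.05, the pericyte gene Higd1b (-0.38), and 0 called, with Notch3 at -0.17. Of the 12, 7 had higher means in KO lungs, and the median difference was 0.20. The average of the list ran from 9.11 to 9.85 in KO lungs and from 8.87 to 9.78 in WT lungs. None of 11 cartilage markers and none of 9 skeletal muscle markers was called or passed an unadjusted p under 0.05, the nearest being Col2a1 (-0.11) and Col11a2 (-0.09) for cartilage and Actn3 (0.11) and Acta1 (0.14) for muscle. Of 9 lung epithelial markers, Sftpc (-0.19) alone was lower at an unadjusted p under 0.05, and Scgb3a2, a club cell secretoglobin gene, differed by -0.43. Of 9 endothelial markers, 4 were higher and 1 lower at an unadjusted p under 0.05 with 0 called, Vwf at 0.76 and Pecam1 at 0.32.

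Blood cell markers were higher in KO lungs. All 8 measured platelet markers had higher means in KO lungs and 3 were called, Itgb3, Tubb1 and Itga2b, the last named after its values were seen. The platelet average was 10.9 to 12.1 in KO lungs and 8.29 to 10.6 in WT lungs. All 3 measured red cell markers had higher means and 1 was called, Alas2 (2.93), beside Slc4a1 (3.70), with averages of 8.85 to 10.2 in KO lungs and 6.92 to 7.24 in WT lungs. All 10 neutrophil markers had higher means, 7 at an unadjusted p under 0.05 and 0 called, Csf3r at 3.16 and S100a9 at 2.96, with averages of 8.79 to 11.4 in KO lungs and 7.91 to 8.65 in WT lungs. The part of blood cell RNA in the collagen values was not tested.

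The genes closest to the 3 members with the smallest p were found among 20520 named genes by the mean absolute difference, over the 8 lungs, of log2 values centred on each gene's mean. Col8a1 was followed most closely by Skint1, Adcy3 and Coq6, at a mean distance of 0.02 each. Col16a1 was followed by Rps6ka6 (0.01), Spg7 (0.02) and Pdgfrl (0.02). The nearest genes to Col14a1 were Snord45b, a small nucleolar RNA, at 0.11, and Pisd-ps2, a pseudogene, at 0.11. Gpam, the first enzyme of glycerolipid synthesis, followed at 0.12. The distance is not scaled to a gene's own spread, so it cannot be compared between members. Col14a1 ran from 7.47 to 8.82 over the lungs, Col8a1 from 5.48 to 5.72. Each of these 9 neighbours had a lower mean in KO lungs, which the measure favours, and none was called.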

How the data were processed

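Total RNA of 8 whole lungs was hybridized to Clariom D mouse arrays, 1 array per animal. The deposited values are log2 signals that the authors made by robust multi-array averaging (RMA) in Transcriptome Analysis Console 4. The RMA variant and the genome build of the array annotation are not given in the sources used here. RMA scales the probes of all arrays to a common distribution before summarizing them, so values are relative within an array, and differences of dim genes are understated. Array medians were 5.21 to 5.29 and pairwise correlations 0.988 to 0.996. Precision is limited by the number of arrays.

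Clusters were named from GEO's platform annotation (30638 with 1 symbol, 2176 with several, 33142 with none). The brightest single-symbol cluster stood for a gene. KO and WT lungs were compared with limma 3.58.1 (R 4.3.3, lmFit and eBayes, no covariate) over all 65956 clusters with Benjamini-Hochberg adjustment, checked on simulated data. The thresholds for a call (adjusted p up to 0.05, fold over 1.5) follow the study's methods. P-values weigh the KO minus WT difference against the spread between lungs of the same genotype, which eBayes moderates with that of all clusters. With 1 array per animal, variation of animals and of arrays is not separated.

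The members and all gene lists were chosen with earlier results of these data known, so lists are described by counts and medians without set tests. Genes named besides the members were the 3 (collagen classes, fibril partners, receptors, C1q-domain relatives) or 2 (cell markers) of each list with the smallest p, the 3 nearest in profile to the members with the smallest p, and those said to be picked after their values were seen. Alternatives covered normalization, filters, the model, sex, the replicate block, thresholds and leaving out each array. Same-numbered KO and WT lungs did not deviate together (correlations -0.19 to 0.06), so numbers were not taken as pairs. Promoters were matched by symbol, 6 of 9 found.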

Additional observations from a re-analysis of the deposited data

Results flagged for a closer look

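The Col12a1 signal of KO replicate 3, 9.10, stood apart from the other KO lungs, which lay between 8.57 and 8.66. Its gap to the nearest of them took up more of the range of the 4 KO lungs than Dixon's 95% critical value allows, by a narrow margin. Of 22 groups examined in this way this was the 1 beyond the value, and chance puts about 1 in 20 groups there.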

How the results depend on the processing

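Under every alternative run, 0 of the measured members were called, adjusted p at most 0.05 with no fold minimum and adjusted p at most 0.10 included. Of 160 differences of single members recomputed, 156 kept their sign. Col8a2 turned to 0.00584 after median-centring and to 0.00894 after cyclic loess, and ranged from -0.0511 to 0.0141 when each array was left out in turn, and Col22a1 from -0.0777 to 0.00293. Both turned positive without KO replicate 1. The number of members at an unadjusted p under 0.05, 4 as reported, was 2 by the methods' t-test and 1 in males only, and 2 to 5 when each array was left out in turn. It was 2 without KO replicate 1, 2 or 3 or WT replicate 2, 3 or 4. With the replicate block it was 3 and no member was called. Same-numbered lungs share only a number (0 of 4 numbers matched best). The number of clusters called over the whole array, 182 as reported, ran from 8 (without KO replicate 1, and without WT replicate 3) to 266 (without WT replicate 1) when each array was left out. Col8a1 alone stayed at an unadjusted p under 0.05 in all of its 18 alternatives. Keeping clusters above the median signal left out Col19a1 and Col22a1. No member has a further single-symbol cluster, so that alternative gave no value.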

Other observations

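Collagen receptors differed in both directions. Of 9 measured, Itga2, the integrin subunit with which platelets and epithelium bind collagen, was called higher: it read 11.6, 11.5, 11.6 and 11.5 in KO lungs and 10.4, 10.5, 10.1 and 10.9 in WT lungs, and rose by 1.07 (SE 0.15, limma adjusted p = 0.0334). Gp6, the platelet collagen receptor and also one of the platelet markers, differed by 2.63 (limma adjusted p = 0.0534) and was not called. Mrc2, the endocytic receptor through which fibroblasts take up collagen, differed by -0.92 (limma adjusted p = 0.0913), with every KO lung below every WT lung. Platelet markers were higher in the same KO lungs, and their part in Itga2 was not tested.

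Genes that share the C1q-like domain of the short-chain collagens gave 0 calls among 12. Mmrn1, encoding multimerin 1 of platelets and endothelium, read 9.26, 8.90, 8.91 and 8.76 in KO lungs and 7.81, 7.71, 7.88 and 8.49 in WT lungs (difference 0.99, limma adjusted p = 0.0641). C1qtnf2 differed by -0.44 (limma adjusted p = 0.214) and Emilin1, an elastic fibre glycoprotein gene, by -0.22 (limma adjusted p = 0.243). The median of the 12 was -0.07.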
